A study of Homo sapiens with 9 samples.

Results

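The cadherins and protocadherins analysed here are the 87 genes, of 25084 in the table, whose symbol is CDH followed by a number or PCDH followed by letters and numbers. They comprise 15 CDH-named cadherins, 13 non-clustered protocadherins and 59 genes of the protocadherin clusters on chromosome 5, of which 16 belong to the alpha, 19 to the beta and 24 to the gamma cluster. Membership was set by symbol, without use of expression values. RNA was sequenced from LAN5, an established human neuroblastoma line with many copies of MYCN, and every group came from this line. The cells received a control small interfering RNA (siRNA; siCTR), an siRNA against MYCN (siMYCN) or an siRNA against HAND2 (siHAND2) by nucleofection, an electroporation method, and were harvested 72 h later, so the control cells had been nucleofected too. Both targets are helix-loop-helix transcription factors, and the series asks which genes they regulate in this line. Each group held 3 libraries. The labels give a single siRNA for each target and do not say whether the libraries came from separate cultures, so p-values measure the spread between these libraries, which may be technical. All values are for 1 cell line under transient knockdown, and in such bulk RNA fewer cells of a type and less RNA per cell cannot be told apart.

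Cadherins are membrane proteins that join cells through calcium-dependent contacts. The classical cadherins hold their partners on the neighbouring cell and anchor to actin through catenins, and in neural crest derivatives a change of cadherin type accompanies migration and differentiation. Protocadherins share the extracellular repeats but lack the catenin-binding tail. The non-clustered protocadherins stand alone in the genome and are mostly neuronal, whereas the clustered ones lie in tandem arrays and give neurons a combinatorial surface identity. In the alpha and gamma clusters each variable exon has its own promoter and is spliced to constant exons shared by the whole cluster, while the beta genes are single-exon genes. Choice among these promoters depends on CTCF, cohesin and DNA methylation, and methylation of the beta genes has been used to mark a subgroup of neuroblastomas.

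As each clustered gene is read from its own promoter, the 100 bases just before the start are shown for 6 of them, taken from RefSeq on GRCh38.p14, all on the plus strand and written 5′ to 3′. They were chosen as a high-level member of each cluster (PCDHA10, PCDHB7, PCDHB10 and PCDHGB7), a gamma gene of lower level (PCDHGA10) and the alpha gene that was lower in siHAND2 (PCDHAC2). Capitals mark each CGCT, the core letters of a sequence element that most clustered protocadherin promoters share. The 4 letters alone do not show that the whole element is present, in PCDHAC2 or in the others.
PCDHA10, chr5:140855797-140855896: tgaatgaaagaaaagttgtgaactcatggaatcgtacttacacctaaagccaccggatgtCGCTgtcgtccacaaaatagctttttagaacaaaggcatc
PCDHAC2, chr5:140966376-140966475: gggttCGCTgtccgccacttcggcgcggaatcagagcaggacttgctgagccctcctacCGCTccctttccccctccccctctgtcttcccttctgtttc
PCDHB7, chr5:141172544-141172643: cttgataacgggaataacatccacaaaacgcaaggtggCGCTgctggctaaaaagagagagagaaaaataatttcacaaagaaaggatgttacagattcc
PCDHB10, chr5:141192253-141192352: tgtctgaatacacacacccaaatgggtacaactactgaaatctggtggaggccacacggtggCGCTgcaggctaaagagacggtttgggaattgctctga
PCDHGA10, chr5:141412887-141412986: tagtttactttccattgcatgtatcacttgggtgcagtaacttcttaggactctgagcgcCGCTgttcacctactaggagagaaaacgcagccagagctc
PCDHGB7, chr5:141417577-141417676: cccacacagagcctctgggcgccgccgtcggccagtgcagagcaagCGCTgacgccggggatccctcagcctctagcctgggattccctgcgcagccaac
In the 5 sequences other than that of PCDHAC2 the letters occur once, and they begin at positions -40 (PCDHA10), -62 (PCDHB7), -38 (PCDHB10), -40 (PCDHGA10) and -54 (PCDHGB7), with -1 the base just before the RefSeq start. PCDHAC2 holds them at -95 and -41. RefSeq promoters matched 67 of the 87 members, 47 of them clustered genes with 52 promoters. On the gene's strand within 100 bases before the start, CGCT was present in 44 of the 52 clustered promoters (84.6%), in 28.1% of all 35116 promoters of the table, in 4 of 15 promoters of non-clustered protocadherins (26.7%) and in 6 of 18 of CDH genes (33.3%). Restricted to 30 to 80 bases before the start, the shares were 76.9% of the clustered promoters and 16.5% of all promoters. The E-box CACGTG, the sequence MYC-family dimers prefer, was searched on both strands of the whole promoter, 250 bases before to 50 after the start, and lay in 3 of 52 clustered promoters (5.77%; PCDHA9, PCDHA10 and PCDHA11) against 7.26% of all promoters. CATCTG, an E-box of a kind bound by other helix-loop-helix dimers, was found in 13.5% of clustered and 14.7% of all promoters. These matches describe letters and not bound sites.

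The libraries held 21.1 M to 32.7 M reads assigned to genes, estimated from the step between low values, which gives a counting error (coefficient of variation) of 17.5% to 21.8% at 1 CPM (reads scaled to a common total). MYCN stood at 70.0% of its siCTR mean in siMYCN and at 49.6% in siHAND2, and HAND2 at 114% and 54.2%, so MYCN mRNA was lower in both knockdowns (both called in the fit described next). Of 10 noradrenergic neuroblastoma markers 9 were in the table, with summed levels of 2230 to 2378 CPM in siCTR, 2851 to 2939 in siMYCN and 2568 to 2753 in siHAND2. Of the 8 tested, 7 were called higher in siMYCN, whereas in siHAND2 the catecholamine enzymes DBH (log2 change -1.01), TH (-0.70) and DDC (-0.25) were called lower and SCG2 (1.61) and STMN2 (0.95) higher. All 7 fibroblast markers were in the table, and they summed to 217 to 232, 266 to 274 and 563 to 643 CPM; COL1A1, a defining collagen, was at 0.720, 0.507 and 0.363 CPM on average, whereas PDGFRA, PDGFRB, LUM, COL1A2 and DCN were higher in siHAND2. Summed Schwann cell (2.06 to 3.34 CPM), endothelial (0.887 to 2.03), epithelial (2.83 to 4.03) and immune markers (0.447 to 0.895) stayed below 5 CPM in every library.

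Filtering on low values (1 CPM or more in any 3 of the 9 libraries) kept 75 members. Their changes are given as differences of mean log2(CPM + 1) with standard errors from limma, and "called" means an adjusted p under 0.05 over all 14495 genes tested. On this scale a gene near 1 CPM shows less than its true change. In siMYCN, 36 of the 75 were called (35 higher, 1 lower), beside 35.9% of all genes tested, 24.5% higher and 11.4% lower. In siHAND2, 54 were called (50 higher, 4 lower), beside 29.9% of all genes, 18.1% higher and 11.8% lower. The 50 include PCDH20, which passed the filter through its siHAND2 libraries alone and is no support for a rise there. The median log2 change of the members was 0.26 in siMYCN and 0.35 in siHAND2, against 0.06 and 0.04 for all genes tested. Directly compared, siHAND2 and siMYCN differed in 23 members (14 higher and 9 lower in siHAND2), beside 26.9% of all genes, 11.4% higher and 15.5% lower. That count was 13 without siMYCN replicate 1, 14 without siHAND2 replicate 2 and 34 without siHAND2 replicate 1. The first 2 comparisons share the siCTR libraries, so their values are given side by side and not as agreement.

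The 12 members under the filter were CDH5, CDH6, CDH20, CDH22, CDH26, PCDH7, PCDH10, PCDH11Y, PCDH15, PCDH19, PCDHA14 and PCDHB1. CDH5, the endothelial cadherin, did not exceed 0.0375 CPM in any library, and CDH6, CDH20, CDH22 and CDH26 stayed below 1 CPM throughout. CDH1 (E-cadherin), the epithelial classical cadherin, is not analysed here.

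Among the classical cadherins of type I, CDH2 (N-cadherin), the main neural cadherin, was the most abundant and rose in siMYCN. CDH2 (chr18:27950966-28177130 on GRCh38) measured 196, 186 and 176 CPM with siCTR, 285, 275 and 287 with siMYCN and 208, 191 and 197 with siHAND2. Every siMYCN library lay above every library of the other groups, while siCTR and siHAND2 overlapped. The log2 change was 0.60 ± 0.05 (adjusted p = 1.3e-07) in siMYCN, a ratio of 1.52, and 0.10 ± 0.05 (adjusted p = 0.136) in siHAND2, and siHAND2 minus siMYCN was -0.50 ± 0.05 (adjusted p = 4.13e-07). CDH4 (R-cadherin, chr20:61252261-61940617), a retinal and neural cadherin, measured 3.09, 2.4 and 2.42 CPM with siCTR, 3.62, 3.72 and 4.21 with siMYCN and 1.22, 1.19 and 1.17 with siHAND2. Its groups were apart in all 3 comparisons, with siMYCN highest and siHAND2 lowest. CDH4 rose by 0.42 ± 0.11 (adjusted p = 0.00707) in siMYCN and fell in siHAND2 with a log2 change of -0.72 ± 0.11 (adjusted p = 0.000108), and the direct difference was -1.14 ± 0.11 (adjusted p = 6.51e-07). CDH3 (P-cadherin) was low, between 1.08 and 2.03 CPM over all libraries, and was not called in any comparison.

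CDH11 (OB-cadherin), a type II cadherin of mesenchymal and neural crest cells, rose most in siMYCN. CDH11 (chr16:64943753-65126112) measured 131, 128 and 126 CPM with siCTR, 176, 166 and 173 with siMYCN and 148, 138 and 142 with siHAND2. All siMYCN libraries were above all siHAND2 libraries, which were in turn above all siCTR libraries. The log2 change was 0.42 ± 0.04 (adjusted p = 1.68e-06) in siMYCN, 0.15 ± 0.04 (adjusted p = 0.0123) in siHAND2 and -0.27 ± 0.04 (adjusted p = 0.000154) between them. The siHAND2 call was lost with median-ratio scaling (0.11), without siCTR replicate 3 (0.14) and without siHAND2 replicate 1 (0.13). CDH24 (chr14:23047062-23057538), a type II cadherin, measured 24.3, 25.7 and 25.9 CPM with siCTR, 24.2, 25.3 and 25.3 with siMYCN and 22.1, 21 and 19.9 with siHAND2. It was lower in siHAND2, where no library reached the lowest of the other 2 groups (-0.26 ± 0.06 (adjusted p = 0.00322)), and differed from siCTR by -0.02 ± 0.06 (adjusted p = 0.822) in siMYCN.

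The other type II cadherins were of lower level. CDH8, a neuronal type II cadherin, averaged 11.3 ± 0.349, 11.5 ± 0.201 and 14.4 ± 0.412 CPM (SD, n = 3) with siCTR, siMYCN and siHAND2, and rose in siHAND2 by 0.33 ± 0.07 (adjusted p = 0.00127). CDH7 fell in siMYCN, from 2.15 ± 0.0606 to 1.53 ± 0.249 CPM (-0.32 ± 0.11 (adjusted p = 0.0377)), and was higher in siHAND2 than in siMYCN by 0.36 ± 0.11 (adjusted p = 0.0274). The siMYCN call of CDH7, the only lower one among the members, rests on values near 2 CPM, and the number of CDH genes called lower was 0 when siCTR replicate 1, 2 or 3 or siMYCN replicate 1 or 3 was left out. CDH18 went from 1.78 ± 0.116 to 1.33 ± 0.126 CPM in siMYCN (adjusted p = 0.0948) and was 1.95 ± 0.245 CPM in siHAND2, higher than siMYCN by 0.34 ± 0.11 (adjusted p = 0.0369). CDH10 and CDH23, the hair-cell cadherin, were not called in any comparison. Over the 10 CDH genes tested, 3 were higher and 1 lower in siMYCN, 2 higher and 2 lower in siHAND2, and 3 higher and 4 lower in siHAND2 than in siMYCN. The 3 higher calls of the direct comparison (CDH7, CDH8 and CDH18) became 1 without siMYCN replicate 1 and without siHAND2 replicate 3. The median log2 change of the 10 CDH genes tested was 0.03 in siMYCN and 0.00 in siHAND2. In siMYCN this median was -0.02 with median-ratio scaling and -0.05 with quantile normalization. The numbers called against siCTR are near the shares of all genes tested that were called (35.9% in siMYCN and 29.9% in siHAND2). Between the knockdowns 7 of the 10 CDH genes were called, beside 26.9% of all genes tested.

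The non-clustered protocadherins held the largest single change among the members, that of PCDH9 in siHAND2. PCDH9, a delta-1 protocadherin of cortical and sensory circuits (chr13:66302834-67230445), measured 10.2, 9.88 and 12.1 CPM with siCTR, 10.2, 12.1 and 14.8 with siMYCN and 27.6, 30.7 and 33.1 with siHAND2. All siHAND2 libraries lay above 27 CPM and all others below 15 CPM. The change in siHAND2 was 1.42 ± 0.11 (adjusted p = 4.84e-08), a ratio of 2.84, and the direct difference from siMYCN was 1.25 ± 0.11 (adjusted p = 1.73e-07). In siMYCN the difference from siCTR was 0.18 ± 0.11 (adjusted p = 0.216), and without siMYCN replicate 1 it was 0.30 and passed the threshold. PCDH1, the delta-1 protocadherin of epithelia, averaged 14.6 ± 1.43, 17.7 ± 2.05 and 15.6 ± 1.48 CPM (SD, n = 3) and was called in siMYCN (0.26 ± 0.09 (adjusted p = 0.0381)) with groups that overlapped. PCDH11X was not called in any comparison.

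The delta-2 protocadherins PCDH17 and PCDH18 were among the most abundant members, and they responded differently. PCDH17 (chr13:57631744-57729311), known for sorting axons and presynaptic sites in the basal ganglia, measured 101, 95.8 and 93.7 CPM with siCTR, 144, 147 and 144 with siMYCN and 73.3, 77.1 and 75.8 with siHAND2. The groups were fully separate, with siMYCN highest and siHAND2 lowest. It rose in siMYCN by 0.58 ± 0.04 (adjusted p = 8.24e-08) and fell in siHAND2, with a log2 change of -0.36 ± 0.04 (adjusted p = 9.32e-06). The direct difference was -0.93 ± 0.04 (adjusted p = 7.2e-11), and the ratio of siHAND2 to siMYCN was 0.520. PCDH18 (chr4:137518918-137532494) measured 166, 158 and 162 CPM with siCTR, 211, 202 and 223 with siMYCN and 238, 214 and 238 with siHAND2. Here both knockdowns were above siCTR in every library and overlapped each other. The changes were 0.38 ± 0.05 (adjusted p = 2.05e-05) in siMYCN and 0.50 ± 0.05 (adjusted p = 9.92e-07) in siHAND2, and the difference between the knockdowns was 0.12 ± 0.05 (adjusted p = 0.085). That difference passed the threshold with median-ratio scaling (0.14), quantile normalization (0.16), without siMYCN replicate 3 (0.16) and without siHAND2 replicate 2 (0.17). PCDH8, the third delta-2 gene tested, was not called in any comparison.

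PCDH20 (chr13:61409685-61415522), a brain protocadherin, was near the detection limit, at 0.581, 0.524 and 0.332 CPM with siCTR, 0.846, 0.997 and 0.720 with siMYCN and 1.25, 1.31 and 1.06 with siHAND2. The 3 groups did not overlap. PCDH20 passed the filter through its siHAND2 libraries alone, so its log2 differences from siCTR of 0.58 in siHAND2 and 0.33 in siMYCN are given as a description. PCDH12, between 0.636 and 1.38 CPM, was not called in any comparison. Of the 8 non-clustered protocadherins tested, 3 were higher and 0 lower in siMYCN, which is near the 35.9% of all genes called there. In siHAND2, 3 were higher and 1 lower, beside 18.1% and 11.8% of all genes. The 3 are PCDH9, PCDH18 and PCDH20, and PCDH20 is no support for a rise, since that group alone let it pass the filter. At an unadjusted p under 0.05 in limma, 5 of the 8 passed in each of these comparisons, PCDH20 among them in siHAND2. The share of all genes at that threshold is not given here.

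**Figure D1:**
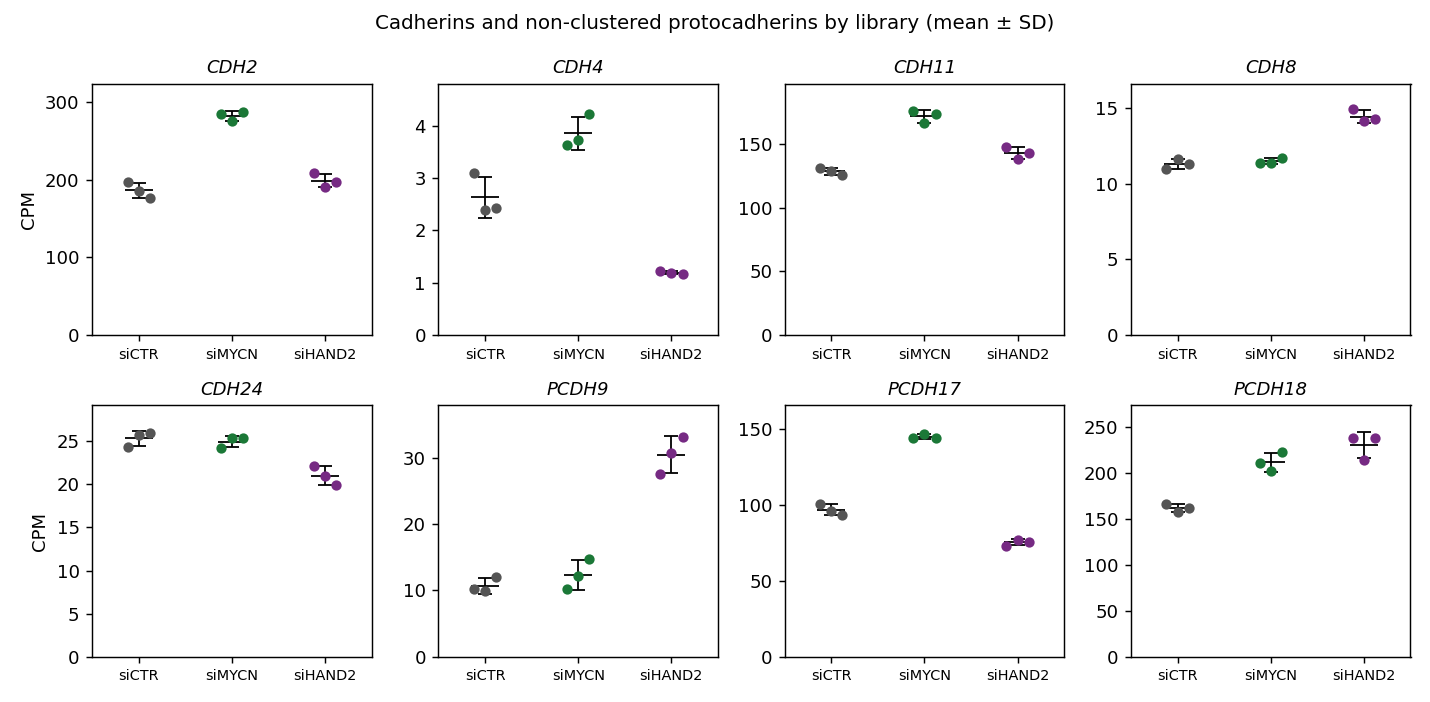
Expression of 5 CDH-named cadherins and 3 non-clustered protocadherins in CPM (vertical axes from 0, each panel with its own range) for the control (siCTR), siMYCN and siHAND2 libraries. Points are the 3 libraries of a group, horizontal marks are means and bars are SDs; CDH2 and PCDH17 are highest in siMYCN, PCDH9 is highest in siHAND2 with a mean of 30.5 CPM, and CDH4 and PCDH17 are lowest in siHAND2.

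The clustered protocadherins lie within chr5:140786136-141512981 on GRCh38, first the alpha, then the beta and then the gamma genes. Of the 57 that passed the filter, 29 were called higher and 0 lower in siMYCN, and 45 higher and 1 lower in siHAND2. The shares of all genes tested were 24.5% higher and 11.4% lower in siMYCN, and 18.1% and 11.8% in siHAND2. The single-gene values need caution. In the alpha and gamma clusters nearly all genes end at the same place, since they share constant exons, and beta genes are alike in sequence. Only 5.17% of alpha, 14.3% of beta and 14.4% of gamma values up to 600 reads were whole numbers of reads (within 0.02 of a read), compared with 77.7% for non-clustered protocadherins and 88.1% for CDH genes, so most clustered values were not whole reads. How a read that matched several genes was counted is not given in the sources used here, and values of neighbouring cluster genes are not independent of each other. Genes on the opposite strand overlap several members, and whether strand was used is not stated; of these, AC244517.5 at PCDHB1 and PCDHB2 averaged 29.4 CPM, RNF14 at PCDH12 38.96 CPM, and every other one 2.12 CPM or less.

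Sums over a cluster are less affected by how reads were divided within it. The 16 alpha genes summed to 191, 187 and 203 CPM with siCTR, 232, 246 and 262 with siMYCN and 205, 223 and 231 with siHAND2. The 19 beta genes summed to 576, 553 and 577 CPM with siCTR, 691, 695 and 739 with siMYCN and 733, 735 and 715 with siHAND2. The 24 gamma genes summed to 342, 342 and 377 CPM with siCTR, 414, 455 and 486 with siMYCN and 454, 509 and 490 with siHAND2. In all 3 clusters every knockdown library was above every siCTR library. The knockdowns overlapped in the beta and gamma sums, and in the alpha sum the lowest siMYCN library (231.6) was just above the highest siHAND2 library (231.2). As ratios of means, the alpha, beta and gamma sums in siMYCN were 1.27, 1.25 and 1.28 times those in siCTR, and in siHAND2 1.13, 1.28 and 1.37 times. These sums are given as descriptions, without a test.

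**Figure D2:**
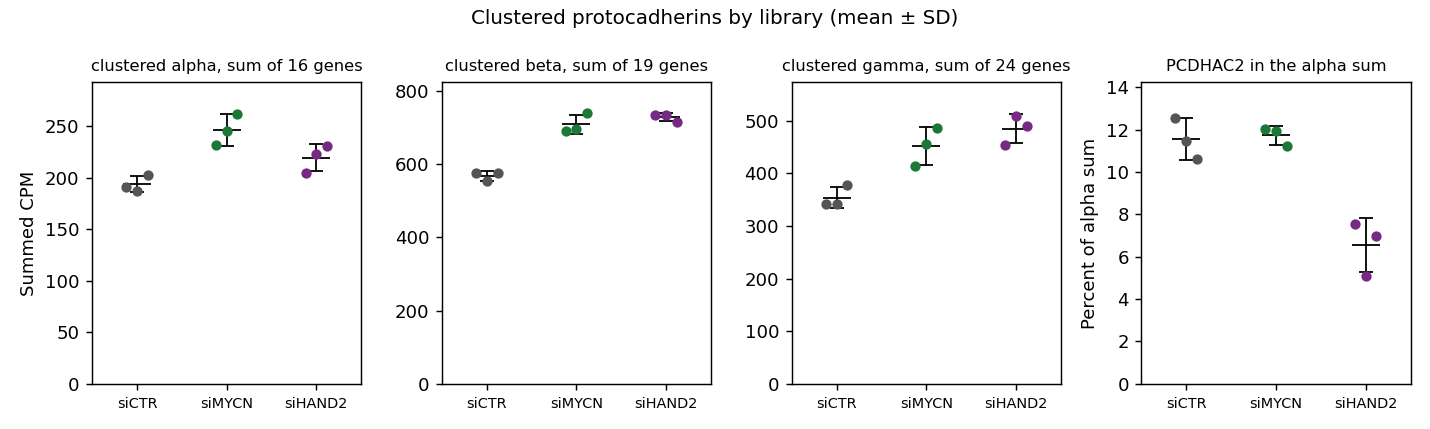
Summed expression of the alpha, beta and gamma protocadherin genes in CPM, and the share of PCDHAC2 in the alpha sum in percent, for each library (points, 3 per group) with the mean and SD. All vertical axes start at 0; both knockdowns are above siCTR in the 3 sums, and the PCDHAC2 share is near 12% in siCTR and siMYCN and 5.11% to 7.56% in siHAND2.

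Levels were compared between genes per kb of exon, averaged over all libraries. The length counts all annotated exons of a symbol, including the constant exons shared in the alpha and gamma clusters (15664 bp for PCDHA10, 2750 bp for PCDHB8). How reads in shared exons were divided is unknown, so beta genes and alpha or gamma genes are not ranked on equal terms. With the alpha and gamma genes set aside, PCDHB8 had the highest level (49.96 CPM per kb), followed by PCDH18 (30.1), CDH2 (25.9), PCDHB10 (23.2), PCDHB5 (21.6) and PCDHB7 (16.7). The highest gamma gene was PCDHGB7 (12.7), and the highest alpha gene PCDHAC1 (9.39). On a per-library basis, without length, PCDHB8 made up 20.2% ± 0.629, 20.8% ± 0.138 and 20.6% ± 0.165 of the beta sum with siCTR, siMYCN and siHAND2 (SD, n = 3). Over single libraries its share ran from 19.8% to 20.97%, both in siCTR. PCDHAC1 and PCDHA10 together dominated the alpha sum, with siCTR shares of 30.8% and 25.5%.

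In the alpha cluster 5 of 15 genes tested were higher and 0 lower in siMYCN, and 6 higher and 1 lower in siHAND2. The siMYCN number is near the 35.9% of all genes called there. In siHAND2, 29.9% of all genes were called, 18.1% higher and 11.8% lower. PCDHA10, among the most highly expressed alpha variable exons, measured 48.9, 47.1 and 52.4 CPM with siCTR, 61.8, 67.3 and 71 with siMYCN and 58.3, 63.5 and 64 with siHAND2. It was above siCTR in every knockdown library, with changes of 0.42 ± 0.06 (adjusted p = 4.3e-05) in siMYCN and 0.32 ± 0.06 (adjusted p = 0.000658) in siHAND2. PCDHA11 measured 2.55, 3.41 and 3.09 CPM with siCTR, 3.15, 4.38 and 3.88 with siMYCN and 4.42, 6.15 and 4.18 with siHAND2, and was called in siHAND2 (0.55 ± 0.13 (adjusted p = 0.00525)) but not in siMYCN (0.26 ± 0.13 (adjusted p = 0.15)). PCDHA4 measured 5.5, 5.95 and 8 CPM with siCTR, 6.31, 6.75 and 8.01 with siMYCN and 8.04, 11.8 and 13.7 with siHAND2, with every siHAND2 library above every siCTR and siMYCN library. Its change was 0.69 ± 0.15 (adjusted p = 0.0027) in siHAND2 and 0.11 ± 0.15 (adjusted p = 0.609) in siMYCN, and the knockdowns differed by 0.58 ± 0.15 (adjusted p = 0.00945).

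PCDHA6 and PCDHA7 were low, and were called between the knockdowns alone. PCDHA6 measured 3.01, 2.36 and 3.2 CPM with siCTR, 1.78, 2.8 and 2.98 with siMYCN and 3.36, 4.7 and 3.23 with siHAND2, with siHAND2 above siMYCN by 0.44 ± 0.15 (adjusted p = 0.0375). PCDHA7 measured 1.85, 1.31 and 2.47 CPM with siCTR, 1.2, 2.13 and 1.85 with siMYCN and 2.22, 2.99 and 3.34 with siHAND2, with siHAND2 above siMYCN by 0.50 ± 0.16 (adjusted p = 0.0321). Both calls were lost without siMYCN replicate 1 (0.28 and 0.36) and without siHAND2 replicate 2 (0.30 and 0.47), and that of PCDHA7 also without siHAND2 replicate 3 (0.41). Neither was called with no filter on low values or with no intensity trend. Against siCTR, PCDHA7 in siHAND2 (0.43 ± 0.16 (adjusted p = 0.0588)) passed the threshold without siCTR replicate 3 (0.57), siMYCN replicate 1 (0.43) or siHAND2 replicate 1 (0.55).

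The 2 C-type alpha genes, at the end of the variable exons, were lower in siHAND2 than in siMYCN. PCDHAC2 (chr5:140966470-141012347) measured 24, 21.5 and 21.5 CPM with siCTR, 27.9, 29.3 and 29.4 with siMYCN and 15.5, 11.4 and 16.1 with siHAND2. The 3 groups did not overlap, and siHAND2 was lowest. It rose in siMYCN by 0.36 ± 0.10 (adjusted p = 0.00782) and fell in siHAND2, with a log2 change of -0.62 ± 0.10 (adjusted p = 0.000131) and a direct difference of -0.98 ± 0.10 (adjusted p = 7.91e-07). Its share of the alpha sum was 12.6%, 11.5% and 10.6% in the siCTR libraries, 12.05%, 11.9% and 11.2% in siMYCN and 7.56%, 5.11% and 6.97% in siHAND2. PCDHAC1 averaged 59.7 ± 2.66, 78.2 ± 3.18 and 59.7 ± 2.05 CPM (SD, n = 3), and it rose in siMYCN (0.38 ± 0.05 (adjusted p = 2.06e-05)) but differed from siCTR by 0.00 ± 0.05 (adjusted p = 0.979) in siHAND2. The direct difference of PCDHAC1 was -0.38 ± 0.05 (adjusted p = 2.15e-05). PCDHAC2 was the only clustered gene called lower in either comparison with siCTR. The remaining 8 alpha genes (PCDHA1, PCDHA2, PCDHA3, PCDHA5, PCDHA8, PCDHA9, PCDHA12 and PCDHA13) included called rises of PCDHA2 (0.24 in siMYCN and 0.25 in siHAND2), PCDHA9 (0.36 and 0.34) and, in siHAND2, PCDHA3 (0.35).

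In the beta cluster every gene tested had a change above 0 in both knockdowns. All 18 beta genes tested were called higher in siHAND2 and 13 in siMYCN, none lower, with log2 changes of 0.09 to 0.48 in siMYCN and 0.19 to 0.50 in siHAND2. Over the alternatives the called number was 13 to 15 in siMYCN and 15 to 18 in siHAND2. Of all genes tested in the main fit, 24.5% were higher and 11.4% lower in siMYCN, and 18.1% and 11.8% in siHAND2. Between the knockdowns limma called 0 of the 18 beta genes, beside 26.9% of all genes tested, with 2 at an unadjusted p under 0.05. Leaving out siHAND2 replicate 1 gave 3 calls (2 higher, 1 lower in siHAND2). PCDHB8, the most abundant, measured 121, 109.5 and 115 CPM with siCTR, 143, 145 and 155 with siMYCN and 152, 149.9 and 147 with siHAND2. PCDHB10 measured 66.6, 65.9 and 65.3 CPM with siCTR, 84.7, 82.1 and 86 with siMYCN and 83.6, 75.7 and 77.2 with siHAND2. PCDHB5 measured 60.5, 60.6 and 65.7 CPM with siCTR, 84.1, 75 and 76.2 with siMYCN and 82, 83.4 and 75.8 with siHAND2. For these 3 genes all knockdown libraries were above all siCTR libraries and the knockdowns overlapped. PCDHB8 rose by 0.35 ± 0.05 (adjusted p = 2.08e-05) in siMYCN and by 0.38 ± 0.05 (adjusted p = 1.09e-05) in siHAND2, PCDHB10 by 0.35 and 0.25, and PCDHB5 by 0.33 and 0.36.

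PCDHB7 measured 49.7, 46.7 and 52.6 CPM with siCTR, 66.3, 64.9 and 67.7 with siMYCN and 73.2, 72.2 and 67.4 with siHAND2. It had the smallest adjusted p of the beta genes in both comparisons, with 0.41 ± 0.05 (adjusted p = 1.63e-05) in siMYCN and 0.50 ± 0.05 (adjusted p = 1.59e-06) in siHAND2. PCDHB16 measured 39.8, 37.4 and 37.8 CPM with siCTR, 46.1, 44 and 52.6 with siMYCN and 53.6, 52.8 and 50.7 with siHAND2. PCDHB14 measured 13.9, 13.6 and 14.9 CPM with siCTR, 16.3, 17.6 and 21.6 with siMYCN and 18.1, 21 and 21.8 with siHAND2. Both rose in both knockdowns, PCDHB16 by 0.30 and 0.44 and PCDHB14 by 0.36 and 0.49. PCDHB16 passed the threshold between the knockdowns with quantile normalization (0.17) and without siMYCN replicate 3 (0.21), and PCDHB10 without siHAND2 replicate 1 (-0.14).

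The named beta genes of lower level moved the same way. PCDHB15 measured 4.16, 4.6 and 5.63 CPM with siCTR, 6.31, 7.86 and 6.99 with siMYCN and 6.04, 7.27 and 7.07 with siHAND2. PCDHB6 measured 2.46, 2.07 and 2.81 CPM with siCTR, 3.57, 3.45 and 3.99 with siMYCN and 4.2, 3.97 and 3.47 with siHAND2. PCDHB4 measured 3.95, 3.94 and 5.13 CPM with siCTR, 5.01, 5.03 and 6.12 with siMYCN and 5.37, 7.41 and 6.89 with siHAND2. PCDHB15 and PCDHB6 were called in both knockdowns, with changes of 0.48 and 0.44 in siMYCN and 0.43 and 0.50 in siHAND2. PCDHB4 was called in siHAND2 (0.50 ± 0.12 (adjusted p = 0.00486)), while its siMYCN change of 0.26 ± 0.12 (adjusted p = 0.101) passed the threshold without siCTR replicate 3 (0.36). Without siHAND2 replicate 1, PCDHB4 also passed between the knockdowns (0.35).

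Members whose symbol ends in P are pseudogenes that resemble their coding neighbours, which makes the assignment of their reads uncertain. PCDHB18P measured 8.69, 8.82 and 9.64 CPM with siCTR, 11.9, 12.4 and 13.2 with siMYCN and 11, 12.3 and 11.2 with siHAND2, and was called in siMYCN (0.43 ± 0.08 (adjusted p = 0.000388)) and siHAND2 (0.32 ± 0.08 (adjusted p = 0.00487)). PCDHB17P measured 1.73, 1.97 and 2.21 CPM with siCTR, 2.77, 1.83 and 2.64 with siMYCN and 3.14, 2.61 and 3.15 with siHAND2, and was called in siHAND2 alone (0.42 ± 0.13 (adjusted p = 0.0201)). That call was lost with quantile normalization (0.34), with no filter (0.42) and without siCTR replicate 1 (0.36), siCTR replicate 2 (0.42), siHAND2 replicate 1 (0.38) or siHAND2 replicate 3 (0.38). The other 7 beta genes tested (PCDHB2, PCDHB3, PCDHB9, PCDHB11, PCDHB12, PCDHB13 and PCDHB19P) lay between 3.97 and 74.1 CPM. Of these 7, 4 were called in siMYCN and 7 in siHAND2, beside 35.9% and 29.9% of all genes tested. Their changes were 0.09 to 0.38 and 0.19 to 0.40.

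In the gamma cluster all 24 genes passed the filter, and 11 were called higher in siMYCN and 21 in siHAND2, none lower. In the same fit 24.5% of all genes were higher and 11.4% lower in siMYCN, and 18.1% and 11.8% in siHAND2. Leaving out siMYCN replicate 3 reduced the siMYCN count of the gamma cluster to 7. The median log2 change was 0.28 in siMYCN and 0.48 in siHAND2. The gamma genes with the highest levels, PCDHGB7 and PCDHGB5, rose more in siMYCN than in siHAND2. PCDHGB7 measured 50.3, 55.2 and 50.8 CPM with siCTR, 73, 74.1 and 69.8 with siMYCN and 68.7, 62.1 and 61.8 with siHAND2. PCDHGB5 measured 42.6, 37.1 and 41.4 CPM with siCTR, 56.8, 56.9 and 62.7 with siMYCN and 52.6, 46.8 and 46 with siHAND2. For both, siMYCN was highest, siHAND2 intermediate and siCTR lowest, with no overlap. PCDHGB7 rose by 0.47 ± 0.05 (adjusted p = 6.65e-06) and 0.30 ± 0.05 (adjusted p = 0.000578) in siMYCN and siHAND2, and PCDHGB5 by 0.53 ± 0.06 (adjusted p = 1.01e-05) and 0.26 ± 0.06 (adjusted p = 0.00622). The difference of siHAND2 minus siMYCN was -0.28 ± 0.06 (adjusted p = 0.00433) for PCDHGB5 and -0.17 ± 0.05 (adjusted p = 0.0273) for PCDHGB7. The PCDHGB7 difference lost its call with no intensity trend (-0.17), median-ratio scaling (-0.15), quantile normalization (-0.14) and without siMYCN replicate 1 (-0.16), siMYCN replicate 2 (-0.15), siHAND2 replicate 2 (-0.15) or siHAND2 replicate 3 (-0.14).

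A further 8 gamma genes described here rose in both knockdowns. PCDHGB6 measured 16.3, 16.1 and 18 CPM with siCTR, 22.6, 24 and 26.9 with siMYCN and 21.4, 24 and 25.8 with siHAND2. PCDHGA10 measured 10.9, 13.3 and 13.3 CPM with siCTR, 14.2, 17.2 and 17.4 with siMYCN and 16.7, 20.1 and 17.5 with siHAND2. PCDHGB1 measured 24.8, 23.8 and 29.5 CPM with siCTR, 32.3, 32.1 and 34.9 with siMYCN and 35.8, 38.9 and 35.6 with siHAND2. All siCTR libraries of these genes were below all knockdown libraries. The changes were 0.52, 0.36 and 0.34 in siMYCN and 0.48, 0.51 and 0.49 in siHAND2, all called. PCDHGA3 measured 3.48, 3.18 and 4.26 CPM with siCTR, 4.53, 5.07 and 6.87 with siMYCN and 4.9, 6.37 and 5.06 with siHAND2. PCDHGA9 measured 9.21, 8.96 and 11.1 CPM with siCTR, 11.6, 11.8 and 13.3 with siMYCN and 14.3, 14 and 15.4 with siHAND2. PCDHGB4 measured 14.2, 14 and 15.1 CPM with siCTR, 15.6, 20.8 and 20.4 with siMYCN and 20.4, 24.3 and 25 with siHAND2. These 3 were called in both comparisons too, with 0.47, 0.30 and 0.36 in siMYCN and 0.47, 0.53 and 0.64 in siHAND2.

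PCDHGA4 measured 17.1, 16.7 and 21.2 CPM with siCTR, 20.4, 23.5 and 28.2 with siMYCN and 25.9, 27.4 and 28.9 with siHAND2. PCDHGA7 measured 7.5, 7.03 and 9.63 CPM with siCTR, 8.85, 10.6 and 11.7 with siMYCN and 11.1, 14.3 and 12.9 with siHAND2. Both were called in each knockdown, although their siMYCN and siCTR libraries overlapped, with 0.37 and 0.33 in siMYCN and 0.56 and 0.61 in siHAND2. The siMYCN calls in this cluster depended on single libraries in 5 genes. Without siMYCN replicate 3 the calls of PCDHGA3 (0.33), PCDHGA4 (0.25), PCDHGA7 (0.25) and PCDHGA9 (0.24) were lost. Without siCTR replicate 2 those of PCDHGA3 (0.40), PCDHGA7 (0.25) and PCDHGA9 (0.24) were lost, without siCTR replicate 1 those of PCDHGA7 (0.29) and PCDHGA9 (0.26), and without siMYCN replicate 2 those of PCDHGA7 (0.32) and PCDHGB4 (0.29). Scaling mattered as well, since PCDHGA7 was not called with median-ratio scaling (0.28) or quantile normalization (0.25), nor PCDHGA9 with the latter (0.22). PCDHGA7 was not called with no filter or no intensity trend either.

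A further 10 named gamma genes were called in siHAND2 and not in siMYCN. PCDHGA5 measured 10.2, 9.5 and 13.4 CPM with siCTR, 10.4, 12 and 13.4 with siMYCN and 14.9, 18.9 and 16.7 with siHAND2. PCDHGA6 measured 17.6, 19.5 and 21.2 CPM with siCTR, 18.8, 22.5 and 24.4 with siMYCN and 24.5, 29.3 and 30.2 with siHAND2. PCDHGB3 measured 13.4, 12.3 and 17.6 CPM with siCTR, 14.7, 14.5 and 19.2 with siMYCN and 18.8, 22.8 and 23.7 with siHAND2. In these 3 genes siHAND2 was above siCTR without overlap and siMYCN overlapped siCTR. Their siHAND2 changes were 0.58, 0.51 and 0.57, and siHAND2 exceeded siMYCN by 0.46 ± 0.12 (adjusted p = 0.00652), 0.34 ± 0.09 (adjusted p = 0.0132) and 0.41 ± 0.12 (adjusted p = 0.0191), each called. PCDHGA11 measured 17.8, 18.4 and 16.3 CPM with siCTR, 16.7, 20.1 and 20.5 with siMYCN and 20.5, 27.3 and 23 with siHAND2. PCDHGB8P measured 3.79, 3.93 and 4.32 CPM with siCTR, 4.09, 5.67 and 5.31 with siMYCN and 5.82, 9.08 and 8.07 with siHAND2. PCDHGA8 measured 16.5, 15.4 and 18.8 CPM with siCTR, 16.9, 23.1 and 20.7 with siMYCN and 20.9, 25.5 and 25.6 with siHAND2. The pseudogene PCDHGB8P had the highest change of the cluster, 0.77 ± 0.13 (adjusted p = 0.000334), and exceeded siMYCN by 0.51 ± 0.13 (adjusted p = 0.00819). PCDHGA11 rose by 0.40 and exceeded siMYCN by 0.29 ± 0.09 (adjusted p = 0.0338). PCDHGA8 rose by 0.48, and its difference between the knockdowns was 0.24 ± 0.10 (adjusted p = 0.0963).

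PCDHGB2 measured 10.8, 9.88 and 11 CPM with siCTR, 9.69, 14.3 and 15.4 with siMYCN and 12.3, 16.5 and 17.7 with siHAND2. PCDHGA12 measured 5.22, 5.81 and 7.06 CPM with siCTR, 4.75, 6.86 and 7.89 with siMYCN and 7.88, 10.6 and 7.77 with siHAND2. Both rose in siHAND2, by 0.50 ± 0.14 (adjusted p = 0.0118) and 0.47 ± 0.15 (adjusted p = 0.0236). The C-type genes PCDHGC4 and PCDHGC5 were near 2 CPM in siCTR. PCDHGC4 measured 1.55, 1.48 and 2.12 CPM with siCTR, 1.93, 2.74 and 2.27 with siMYCN and 2.52, 3.34 and 2.98 with siHAND2. PCDHGC5 measured 2.1, 2.4 and 2.35 CPM with siCTR, 1.67, 2.78 and 3.4 with siMYCN and 2.69, 3.96 and 3.77 with siHAND2. They rose in siHAND2 by 0.54 ± 0.13 (adjusted p = 0.00486) and 0.44 ± 0.16 (adjusted p = 0.0476). The siHAND2 calls of 4 gamma genes depended on single libraries. Without siHAND2 replicate 2 the calls of PCDHGA3 (0.37), PCDHGA12 (0.34), PCDHGB2 (0.45) and PCDHGC5 (0.36) were lost, and without siCTR replicate 2 the same genes lost theirs (0.40, 0.45, 0.46 and 0.46). PCDHGA12 also lost its call without siCTR replicate 1 (0.39) and with quantile normalization (0.41). PCDHGC5 lost its call without siCTR replicate 1 (0.39), siCTR replicate 3 (0.45), siMYCN replicate 2 (0.44) or siHAND2 replicate 3 (0.38) and under both scalings. With no intensity trend PCDHGA12, PCDHGB2 and PCDHGC5 were not called, with no filter PCDHGA12 and PCDHGC5, and with a pseudocount of 0.1 PCDHGC5. The other 4 gamma genes (PCDHGA1, PCDHGA2, PCDHGB9P and PCDHGC3) lay between 2.05 and 25.4 CPM, and of these PCDHGC3 was called in both knockdowns (0.39 and 0.29).

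Not being called in siMYCN does not show that these genes differ between the knockdowns. In siMYCN, PCDHGB2 (0.27 ± 0.14 (adjusted p = 0.145)), PCDHGA8 (0.24 ± 0.10 (adjusted p = 0.0834)) and PCDHGB8P (0.26 ± 0.13 (adjusted p = 0.144)) passed the threshold once siMYCN replicate 1 was left out (0.46, 0.36 and 0.37), as did PCDHGA6 (0.27). Without siCTR replicate 3, PCDHGA8 (0.31) and PCDHGC4 (0.39) passed it. The plot of changes by gene shows this pattern, with all beta and gamma genes above 0 in both knockdowns.

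**Figure D3:**
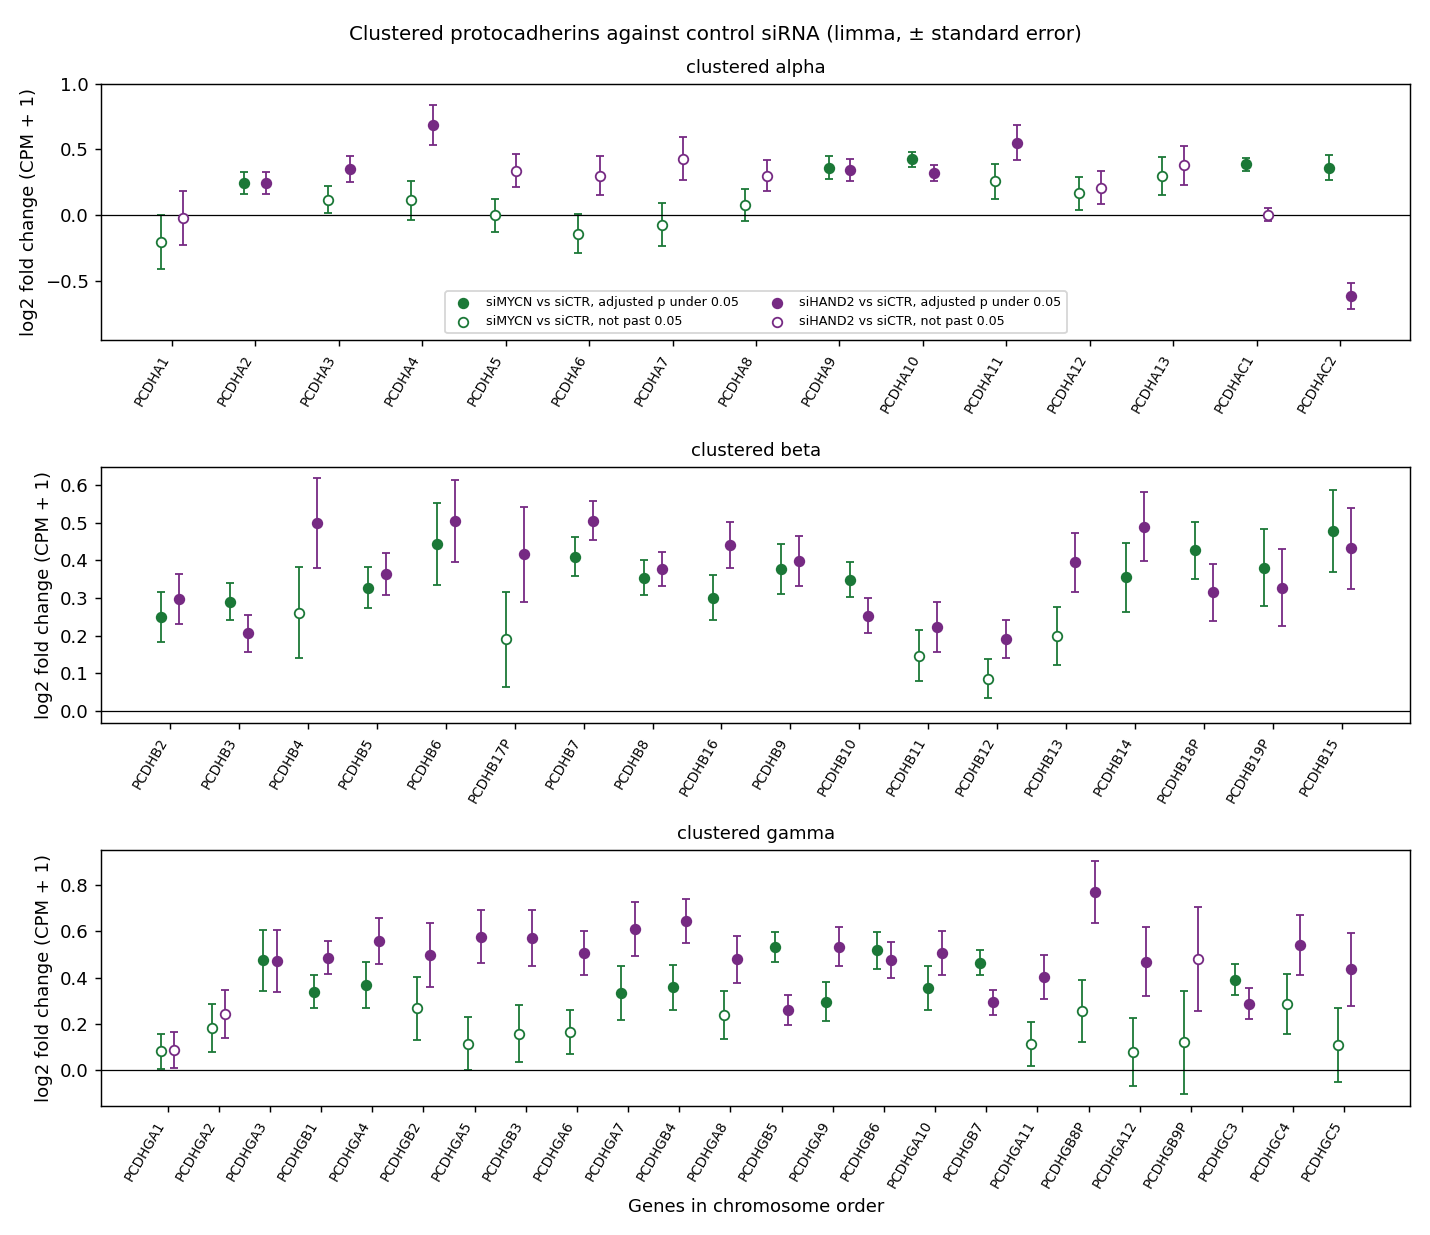
Log2 fold change on the log2(CPM + 1) scale against siCTR for the 15 alpha, 18 beta and 24 gamma genes tested, in chromosome order, for siMYCN (green) and siHAND2 (purple). Points are limma estimates, bars are standard errors and filled points have an adjusted p under 0.05; each panel has its own vertical range, all beta and gamma points are above 0, and PCDHAC2 in siHAND2 is the lowest at -0.62.

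The calls of the direct comparison were also counted by cluster. In siHAND2 relative to siMYCN, the alpha cluster had 3 genes higher and 2 lower, the beta cluster 0, and the gamma cluster 7 higher and 2 lower. Among all genes tested 26.9% were called, 11.4% higher and 15.5% lower. Of the 57 clustered genes tested 14 were called, which is near that share. The lower ones were PCDHAC1, PCDHAC2, PCDHGB5 and PCDHGB7, and the higher ones PCDHA4, PCDHA6, PCDHA7, PCDHGA5, PCDHGA6, PCDHGA9, PCDHGA11, PCDHGB3, PCDHGB4 and PCDHGB8P. The 7 higher gamma calls became 2 without siMYCN replicate 1, 1 without siHAND2 replicate 2 and 12 without siHAND2 replicate 1, and the 3 higher alpha calls became 1, 1 and 6. The 2 lower gamma calls became 1 without siMYCN replicate 1, siMYCN replicate 2, siHAND2 replicate 2 or siHAND2 replicate 3.

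By gene, PCDHGA6, PCDHGA11, PCDHGB3, PCDHGB4 and PCDHGA9 lost their call in the direct comparison without siMYCN replicate 1 (0.24, 0.20, 0.36, 0.16 and 0.20). Without siHAND2 replicate 2 the same 5 genes lost it (0.31, 0.18, 0.38, 0.25 and 0.26), as did PCDHGB8P (0.39). Without siHAND2 replicate 3, PCDHGB3 (0.35), PCDHGB4 (0.23) and PCDHGA9 (0.20) lost it, and without siMYCN replicate 2, PCDHGB3 (0.34) and PCDHGA9 (0.21). PCDHGA9, at an adjusted p of 0.0498, also lost it without siCTR replicate 1 (0.24), siCTR replicate 2 (0.24) or siHAND2 replicate 1 (0.25). With no intensity trend PCDHGA6, PCDHGA9, PCDHGA11, PCDHGB3 and PCDHGB4 were not called, with no filter PCDHGA9, PCDHGA11 and PCDHGB4, with 2 groups alone PCDHGB4, and with a pseudocount of 0.1 PCDHGA9. In the other direction, PCDHGA7, PCDHGA8, PCDHGA12, PCDHGB2 and PCDHGC5 passed the threshold without siHAND2 replicate 1 (0.37, 0.33, 0.45, 0.38 and 0.46). PCDHGA4, PCDHGA12 and PCDHGC5 passed it without siMYCN replicate 3 (0.31, 0.52 and 0.48), PCDHGA12 without siHAND2 replicate 3 (0.46) and PCDHGA8 without siMYCN replicate 2 (0.34). The differences of CDH2, CDH4, CDH11, CDH24, PCDH9, PCDH17, PCDHAC2, PCDHA4, PCDHGA5 and PCDHGB5 kept their direction and call under all 18 alternatives, except that CDH4 was below the filter of 5 CPM and not tested there.

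**Figure D4:**
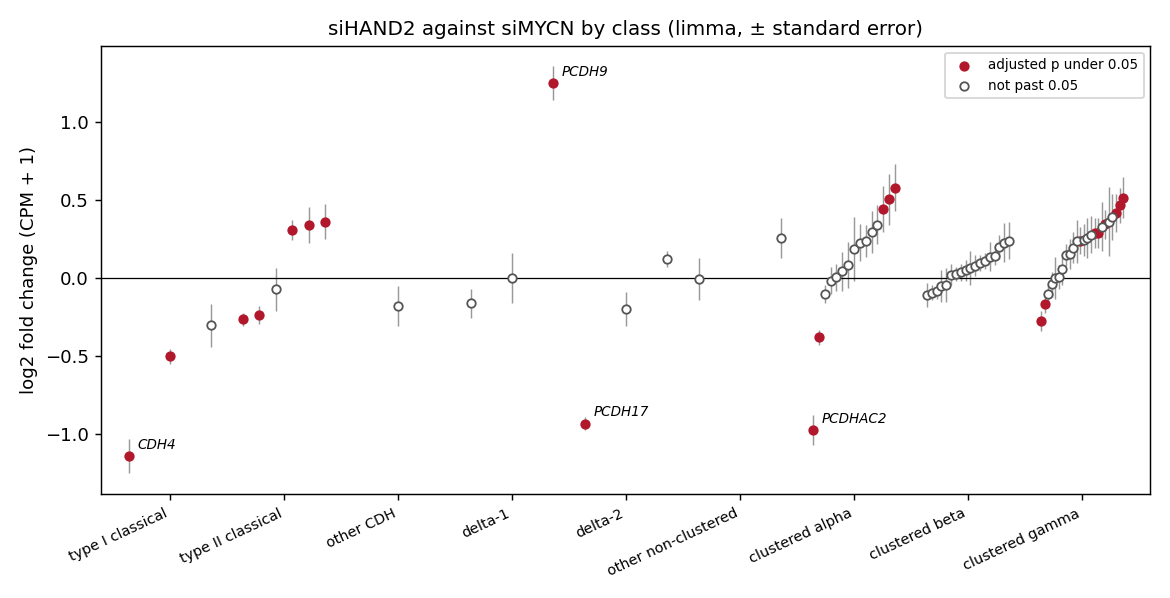
Difference of siHAND2 from siMYCN on the log2(CPM + 1) scale for the 75 members tested, by class and in ascending order within a class. Points are limma estimates with standard errors, filled where the adjusted p was under 0.05; PCDH9 is highest at 1.25, CDH4, PCDHAC2 and PCDH17 lie near -1, and the beta genes lie around 0.

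Catenins link classical cadherins to actin. Of 11 genes tested in the list of catenins and plakophilins, 9 were called higher and 1 lower in siMYCN and 7 higher and 1 lower in siHAND2, with median log2 changes of 0.24 and 0.26. Among all genes tested, 24.5% were higher and 11.4% lower in siMYCN, and 18.1% higher and 11.8% lower in siHAND2. The 1 plakophilin tested, PKP4, was the gene that was lower in siMYCN (-0.26 ± 0.06 (adjusted p = 0.00319)), and it differed from siCTR by -0.01 in siHAND2. JUP (plakoglobin) averaged 28.8, 47.9 and 48.4 CPM in siCTR, siMYCN and siHAND2, a rise of 0.72 ± 0.06 (adjusted p = 2.52e-07) and 0.73 ± 0.06 (adjusted p = 1.24e-07). CTNNA2, the neuronal alpha-catenin, rose by 0.64 ± 0.04 (adjusted p = 5.5e-08) and 0.60 ± 0.04 (adjusted p = 4.56e-08). ARVCF, a p120-related catenin, rose in siMYCN (0.43 ± 0.06 (adjusted p = 8.15e-05)) and fell in siHAND2 (-0.23 ± 0.06 (adjusted p = 0.0128)), the same order of groups as CDH4 and PCDH17. The desmosomal cadherins are not analysed here.

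Of 12 atypical cadherins and their partners tested, 5 were higher and 3 lower in siMYCN and 5 higher and 2 lower in siHAND2, with median log2 changes of 0.17 and 0.09. The shares of all genes were 24.5% higher and 11.4% lower in siMYCN, and 18.1% and 11.8% in siHAND2. CLSTN2, a synaptic calsyntenin with cadherin repeats, averaged 56.5, 47.5 and 245 CPM, with a siHAND2 change of 2.09 ± 0.06 (adjusted p = 8.26e-13) that exceeded that of every member. FAT3, a giant cadherin of neurons, rose by 1.78 ± 0.10 (adjusted p = 8.7e-10) in siHAND2 and differed from siCTR by 0.06 in siMYCN. FAT4, the receptor of DCHS1, rose in siMYCN (0.61 ± 0.08 (adjusted p = 3.83e-05)). It was called lower in siHAND2 (-0.25 ± 0.08 (adjusted p = 0.0334)), with groups that overlapped. The FAT4 difference of siHAND2 minus siMYCN was -0.86 ± 0.08 (adjusted p = 7.73e-07).

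The transcription factors that act on cadherin switching included 7 that were tested, of which TCF4 alone was called in siMYCN (0.16 ± 0.04 (adjusted p = 0.00917)). In siHAND2, ZEB2 (0.73 ± 0.06 (adjusted p = 2.84e-07)) and SNAI2 (0.46 ± 0.08 (adjusted p = 0.000475)) rose, and 0 fell. The 1 of 7 called in siMYCN is below the 35.9% of all genes, and the 2 of 7 in siHAND2 are near the 29.9%. ZEB2 averaged 38.2, 37.9 and 64.1 CPM, and SNAI2 22.2, 22.1 and 30.8 CPM. Among 19 genes of the chromatin machinery known to act on the protocadherin clusters, 9 were called higher and 1 lower in siMYCN, beside 24.5% and 11.4% of all genes, and 4 higher and 0 lower in siHAND2, beside 18.1% and 11.8%. Their median log2 changes were 0.13 and 0.06, and the siHAND2 number is near that of all genes. DNMT3A, a de novo DNA methyltransferase, rose by 0.25 ± 0.05 (adjusted p = 0.000769) in siMYCN and 0.50 ± 0.05 (adjusted p = 8.24e-07) in siHAND2. CTCF rose by 0.14 and 0.17, and the cohesin subunit STAG1 by 0.22 ± 0.05 (adjusted p = 0.00326) in siMYCN. PDS5B, a cohesin regulator, rose by 0.33 ± 0.05 (adjusted p = 6.97e-05) in siHAND2. Of 10 proteases that cleave or mature cadherins, 4 were higher in siMYCN, 2 lower in siHAND2 and 5 lower in siHAND2 than in siMYCN, beside 24.5% of all genes higher in siMYCN, 11.8% lower in siHAND2 and 15.5% lower between the knockdowns. In total 4 of 10 in siMYCN and 2 of 10 in siHAND2 were called, which is near or below the shares of all genes (35.9% and 29.9%). These included ADAM10 (0.19 ± 0.04 (adjusted p = 0.00285) in siMYCN), which sheds N-cadherin, and PSEN2 (-0.42 ± 0.08 (adjusted p = 0.00097) between the knockdowns), a gamma-secretase subunit.

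The siHAND2 rises of members stand beside higher fibroblast markers in the same libraries. All 6 fibroblast markers tested were called higher in siHAND2 and 5 in siMYCN. DCN rose from 0.431 to 11 CPM and LUM from 9.15 to 54.7 CPM in siHAND2, with COL1A1 below the filter in all groups. The part of these markers, and of the lower MYCN mRNA in siHAND2, in the changes of the members was not tested.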

How the data were processed

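RNA sequencing of 9 LAN5 libraries, 3 per siRNA, was used. The authors deposited 1 table of CPM values (reads scaled to a common total) for 25084 genes, with a constant of 0.0001 in every value. Per the submitters' processing notes, STAR 2.5.1 and Partek were used with hg19 (GRCh37). The gene coordinates in the deposited table match GRCh38, however: 91.4% of 18215 starts found in RefSeq lay within 5000 bp on GRCh38 and 5.62% on GRCh37. Coordinates are therefore given as GRCh38, counted from 1. The counting tool, its rule for shared reads and its use of strand are not given in the sources used here.

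Because 79.3% to 80.8% of values up to 20 reads were whole (95% was needed), no count model was used. limma 3.58.1 in R 4.3.3 was fitted to log2(CPM + 1) of the 14495 genes that reached 1 CPM in 3 or more libraries, with an intensity trend, all 9 libraries together (prior degrees of freedom 10.1). Two-sided tests were run, with Benjamini-Hochberg adjustment over all genes tested and a threshold of 0.05. The fit was tested on simulated data. Exon lengths came from a GRCh37 GENCODE annotation by symbol, with no coordinate printed.

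Every library's values are given for members called with an absolute log2 change of at least 0.4 and groups that did not overlap, and for the 3 highest of each superclass (CDH, non-clustered, clustered). CDH1 and CDH2 are always named. Up to 2 genes per comparison are named from each other list by smallest p; CTCF, DCN and LUM, the summed markers and the unnamed members given singly were chosen after their values were seen. The members and lists were chosen with earlier results of these data known. Alternatives were pseudocounts of 0.1 and 5, no filter and a filter of 5 CPM, median-ratio and quantile scaling, 2 groups alone, no trend, replicate number as a block, and each library left out. Replicate numbers were not taken as pairs, since no source ties them to a shared batch and only 6 of 9 same-numbered pairs of libraries correlated above 0.1.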

Additional observations from a re-analysis of the deposited data

How the results depend on the processing

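The number of members called was 36 in siMYCN, 54 in siHAND2 and 23 between the knockdowns. Leaving out 1 library gave 30 to 42, 46 to 56 and 13 to 34. Only the last count moved by over 1.5 times, to 13 without siMYCN replicate 1 and to 14 without siHAND2 replicate 2; the cause was not tested. The other settings gave 33 to 43, 47 to 60 and 16 to 33. For the 45 members with full values, 2394 recomputed changes over 18 settings and 3 comparisons held 2253 on the same side of the threshold, 92 that fell short of it and 49 that newly passed it, with 0 reversed in sign. The filter of 5 CPM left out 9 of the 45, and PCDH20 was below the filter when a siHAND2 library was left out.

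Among all genes tested, the share of calls that were higher in siMYCN was 68.3%, and 51.2% with median-ratio and 49.3% with quantile scaling. In siHAND2 it was 60.6%, 47.1% and 47.8%, and between the knockdowns 42.4%, 49.6% and 51.9%. Under these scalings no beta or gamma gene was called lower against siCTR. With the replicate block 43, 60 and 33 members were called, with PCDH18 between the knockdowns and PCDHGB2, PCDHGA6, PCDHGA8, PCDHGB8P and PCDHB4 in siMYCN among those added. Nothing states that the numbers mark a shared batch. Deviations of same-numbered libraries correlated at -0.04 to 0.31 in 9 pairs, 6 of them above 0.1, and others at -0.30 to 0.14 in 18, 2 of them above 0.1; not every library correlated best with its own number. The alpha cluster had 10 genes called higher in siHAND2 with the block, in place of 6.

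Counting error at 1 CPM is 17.5% to 21.8%, so PCDH20, PCDHA7 and PCDHGC4 are imprecise. How reads were divided between cluster genes is unknown, which limits every single clustered value.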

Other observations

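Genes of chromosome 5 beside and between the clustered protocadherins were examined after the cluster values had been seen. Within 500 kb of the clusters, 28 genes that are not members passed the filter. In siMYCN 5 of these were called higher and 4 lower, with a median log2 change of 0.11, beside 24.5% and 11.4% of all genes. In siHAND2 4 were higher and 2 lower, with a median of 0.06, beside 18.1% and 11.8% of all genes. In total the numbers called are near or below the 35.9% and 29.9% of all genes tested. The clustered members tested had medians of 0.29 and 0.40. The 7 of the 28 genes that lie between the first and last clustered gene had changes above 0 in both knockdowns, with medians of 0.20 and 0.26. Of these 7, 2 were called higher and 0 lower in each knockdown, which is near the shares of all genes called. Called higher in siHAND2 were AC244517.6 (0.73, adjusted p = 0.000578), which overlaps PCDHB9 and PCDHB16 on the same strand, and AC244517.1 (0.47, adjusted p = 0.00596), and in siMYCN AC244517.5 (0.28, adjusted p = 0.0275) and TAF7. TAF7, a general transcription factor subunit encoded between the beta and gamma clusters on the opposite strand, averaged 186 ± 4.40, 204 ± 7.75 and 193 ± 7.75 CPM (SD, n = 3) with siCTR, siMYCN and siHAND2. DIAPH1, an actin-nucleating formin just beyond the gamma cluster, averaged 58.1 ± 0.501, 51.6 ± 0.309 and 50.7 ± 2.04 CPM and fell in both knockdowns, with log2 changes of -0.17 (adjusted p = 0.00908) and -0.19 (adjusted p = 0.00418). GNPDA1, a glucosamine-phosphate deaminase farther along, fell with changes of -0.19 (adjusted p = 0.00327) and -0.17 (adjusted p = 0.0083). TAF7 rose in siMYCN by 0.13 (adjusted p = 0.0256) and differed from siCTR by 0.05 in siHAND2 (adjusted p = 0.39).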
